A study of Rattus norvegicus with 61 samples.

Results

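The mitochondrial ribosome is built from RNAs encoded in the mitochondrial genome and from proteins encoded in the nucleus, whose genes carry the symbols Mrpl (large subunit) and Mrps (small subunit). The genes described here are all rows of both count tables whose NCBI Gene ID has a rat symbol made of Mrpl or Mrps and a number, with pseudogene symbols left out. There were 70 such members among 14231 genes in the striatal table and 14129 in the cerebellar one, 43 with a large-subunit and 27 with a small-subunit symbol. RefSeq lists 78 protein-coding symbols of this form. The other 8 (Mrpl28, Mrpl33, Mrpl39, Mrpl41l1, Mrpl42l1, Mrps21l, Mrps36l1 and Mrps6) are not analysed here.

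RNA came from the striatum and the cerebellum of male adolescent Sprague-Dawley rats. On postnatal day 28 each rat received a polymer implant under the skin, and exposure lasted 28 days. The implants held 4-OH-PCB52, a hydroxylated metabolite of the polychlorinated biphenyl PCB52, at a loading of 0% (sham), 1% (low), 5% (medium) or 10% (high), so the sham rats also carried an implant. The series text gives 6 animals per exposure group, while the labels give 6 to 8 libraries per group and region, all of which were used. The striatum gave 8 sham, 6 low, 8 medium and 8 high libraries, and the cerebellum gave 7, 8, 8 and 8. Each library is named below by region, loading and the rat's number, and libraries of both regions with the same number were read as the same rat.

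Mitochondrial ribosomes translate only the few proteins that mitochondrial DNA encodes, which are all core parts of the respiratory chain and the ATP synthase. Their own proteins are made in the cytosol, imported, and assembled on the ribosomal RNAs with the help of GTPases, RNA helicases and RNA-modifying enzymes. Brain neurons rely heavily on respiration, and inherited loss of several of these proteins, among them MRPS22, causes severe childhood disease of the brain and heart. The transcription factors NRF1 and GABP (an ETS-family factor) and YY1 are known regulators of many nuclear genes for mitochondrial proteins.

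RefSeq's promoter table (build GRCr8, 250 bases before to 50 after each start) held a window for 56 of the 70 members. The 5 windows below are shown because 2 belong to genes that differed between regions (Mrps5, Mrps31), 2 hold matches to a pair of these motifs (Mrps26, Mrps27), and 1 lies between 2 members that start head to head (Mrpl46 and Mrps11). Capitals mark matches to the motifs of NRF1 (GCGCA, any base, then GCGC), CCGGAAGT (ETS factors) and AAGATGGCG (YY1), each searched on both strands.
Mrps5, chr3:135274083-135274382, plus strand: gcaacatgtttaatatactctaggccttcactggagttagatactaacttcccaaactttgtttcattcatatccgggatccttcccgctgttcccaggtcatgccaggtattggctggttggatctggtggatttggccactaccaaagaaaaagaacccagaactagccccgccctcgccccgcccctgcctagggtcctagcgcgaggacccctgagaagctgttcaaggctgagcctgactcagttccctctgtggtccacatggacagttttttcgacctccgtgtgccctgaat
Mrps31, chr16:76324016-76324315, minus strand: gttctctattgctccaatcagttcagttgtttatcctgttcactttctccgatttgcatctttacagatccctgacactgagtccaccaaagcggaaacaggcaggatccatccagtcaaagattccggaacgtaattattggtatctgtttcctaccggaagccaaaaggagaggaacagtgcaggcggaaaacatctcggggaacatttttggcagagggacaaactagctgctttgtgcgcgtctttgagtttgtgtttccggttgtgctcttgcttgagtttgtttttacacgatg
Mrps26, chr3:138222074-138222373, plus strand: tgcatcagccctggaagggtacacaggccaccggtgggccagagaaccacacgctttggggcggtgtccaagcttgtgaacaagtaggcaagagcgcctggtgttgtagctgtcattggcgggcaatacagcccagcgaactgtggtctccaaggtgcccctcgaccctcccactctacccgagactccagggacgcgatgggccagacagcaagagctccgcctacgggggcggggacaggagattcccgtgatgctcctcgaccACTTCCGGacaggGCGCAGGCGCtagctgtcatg
Mrps27, chr2:32473954-32474253, plus strand: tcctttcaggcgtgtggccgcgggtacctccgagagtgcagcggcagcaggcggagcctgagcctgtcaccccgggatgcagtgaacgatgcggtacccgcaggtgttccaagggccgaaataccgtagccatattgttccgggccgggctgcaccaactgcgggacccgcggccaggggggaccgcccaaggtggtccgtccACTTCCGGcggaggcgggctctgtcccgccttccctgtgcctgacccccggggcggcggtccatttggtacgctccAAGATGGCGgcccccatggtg
Mrpl46, chr1:142116981-142117280, minus strand: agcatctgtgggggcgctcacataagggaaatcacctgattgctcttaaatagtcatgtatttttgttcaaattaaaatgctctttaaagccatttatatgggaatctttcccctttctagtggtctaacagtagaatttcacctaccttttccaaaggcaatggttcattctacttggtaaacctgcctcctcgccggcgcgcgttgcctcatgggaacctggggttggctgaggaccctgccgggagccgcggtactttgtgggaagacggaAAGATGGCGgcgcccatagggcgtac
Neither Mrps5 nor Mrps31 holds one of these motifs in its window, which says only that these letters are not there. Mrps26 holds the ETS and the NRF1 motif, and Mrps27 the ETS and the YY1 motif.

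The YY1 motif was in 9 of the 56 member windows (16.1%), against 3.14% of the 11137 windows of genes in both count tables. All 9 matches started between 100 bases before and 50 bases after the transcription start, 8 of them after it, with a median start 20 bases downstream. They were in Mrpl36, Mrpl37, Mrpl42, Mrpl46, Mrpl50, Mrps10, Mrps18a, Mrps27 and Mrps30. The NRF1 motif was in 9 members (16.1%, against 8.79%): Mrpl14, Mrpl17, Mrpl30, Mrpl32, Mrpl44, Mrpl45, Mrpl57, Mrps18b and Mrps26. The ETS motif was in 8 (14.3%, against 7.13%): Mrpl3, Mrpl27, Mrpl48, Mrpl52, Mrpl53, Mrps18c, Mrps26 and Mrps27. At least 1 of the 3 motifs was in 24 members (42.9%, against 17.3%), close to the 42.6% of 68 windows of nuclear respiratory chain genes. For cytosolic ribosomal protein genes the share was 24.2% of 66 windows. By motif the respiratory chain windows had 13.2% (YY1), 19.1% (NRF1) and 11.8% (ETS). The cytosolic ribosomal ones had 4.55%, 9.09% and 10.6%. Positions of matches were taken in the members only. Over all 27457 windows of the table the shares were 4.71% (NRF1), 4.01% (ETS), 1.93% (YY1) and 9.77% (any of the 3). The GC box GGGGCGGGG was in 7 members (12.5%, against 18.6% of table genes and 10.4% of all windows). The letters TATAAA were also in 7 (12.5%, against 7.82% and 14.3%). A match of letters is a description and not a binding site.

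Some members have close neighbours or copies that bear on their counts. Of the 56 members with a promoter window, 24 start head to head with another gene within 1000 bases. Such partners were sought only among genes with a window, and the other members were not assessed. By RefSeq's gene table, 18 of the 70 overlap another gene, and 22 have a named pseudogene (Mrpl30 has 9). How the authors' counting treated reads shared by such genes and copies is not given in the sources used here, so these members' counts are less certain. Many genes named in the results are among them. For example, Mrps31, Mrpl37, Mrps2 and Mrpl47 overlap another gene. Mrps18c, Mrps21, Mrpl23, Mrpl37, Mrpl54 and Mrps11 each have 1 named pseudogene, and Mrps16, Mrpl42 and Mrpl47 each have 2.

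Striatal libraries held a median of 7139973 counts (lowest 5850199, highest 10944066), and the cerebellar ones 7223058 (lowest 5420458, highest 10994625). Levels below are CPM values (the share of a library's counts, scaled to a common library size) after TMM scaling, or log2 CPM with a prior count of 2. TMM scaling of these levels was done within each region, so levels of the 2 regions share no TMM scale. Fold changes between regions come from fits with 1 scaling over both. All 70 members passed the filter on low counts in both regions, and their lowest single count was 50 in the striatum and 47 in the cerebellum. Members are not ranked against each other by level, since no transcript lengths were used. The 10 markers of striatal projection neurons and the 10 of cerebellar granule cells were counted above 0 in every library of their own region. Their summed level was far below the group median in some libraries. In the striatum the sum ran from 433 (group median 8728) to 11243 CPM in sham, from 612 (8418) to 10818 in low, from 8841 (10736) to 14911 in medium, and from 711 (9250) to 15530 in high. In the cerebellum it ran from 2866 (7400) to 7625 in sham, from 222 (7123) to 8174 in low, from 1262 (5863) to 7683 in medium, and from 2652 (7092) to 7560 in high. The lowest were the library labelled striatum sham 17, where choroid plexus markers also averaged 8.12 log2 CPM, and the library labelled cerebellum low 22. A library is said to stand apart where its mean over cytosolic ribosomal protein genes, or over the region's own neuron markers, is over 1 log2 unit away from the regional median. By this rule 8 of the 30 striatal libraries stood apart, of which 2 were sham, 1 was low, 2 were medium and 3 were high. So did 10 of the 31 cerebellar libraries, of which 1 was sham, 2 were low, 4 were medium and 3 were high. Results are given with and without them. In whole tissue, fewer cells of a type and less RNA per cell cannot be told apart.

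The members varied widely between libraries of the same group. Over the 70 genes the mean level in the cerebellum was 5.12 ± 0.60 (SD, n = 7) log2 CPM in sham, 5.02 ± 0.44 (SD, n = 8) in low, 5.28 ± 0.62 (SD, n = 8) in medium and 5.64 ± 1.27 (SD, n = 8) in high. In the striatum it was 5.10 ± 0.31 (SD, n = 8), 4.92 ± 0.069 (SD, n = 6), 5.16 ± 0.40 (SD, n = 8) and 5.10 ± 0.44 (SD, n = 8). The 3 highest libraries of the series were all cerebellum high: rat 43 at 7.69, rat 28 at 6.94 and rat 59 at 6.80. The other 5 cerebellum high libraries lay between 4.70 and 4.77, so this group was split into 2 well separated sets. Next came cerebellum medium 24 at 6.42 and cerebellum sham 48 at 6.37, so an unexposed rat was among the high ones. In the striatum the highest were high 28 at 6.09, medium 41 at 5.91, medium 8 at 5.64 and sham 49 at 5.62.

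**Figure D1:**
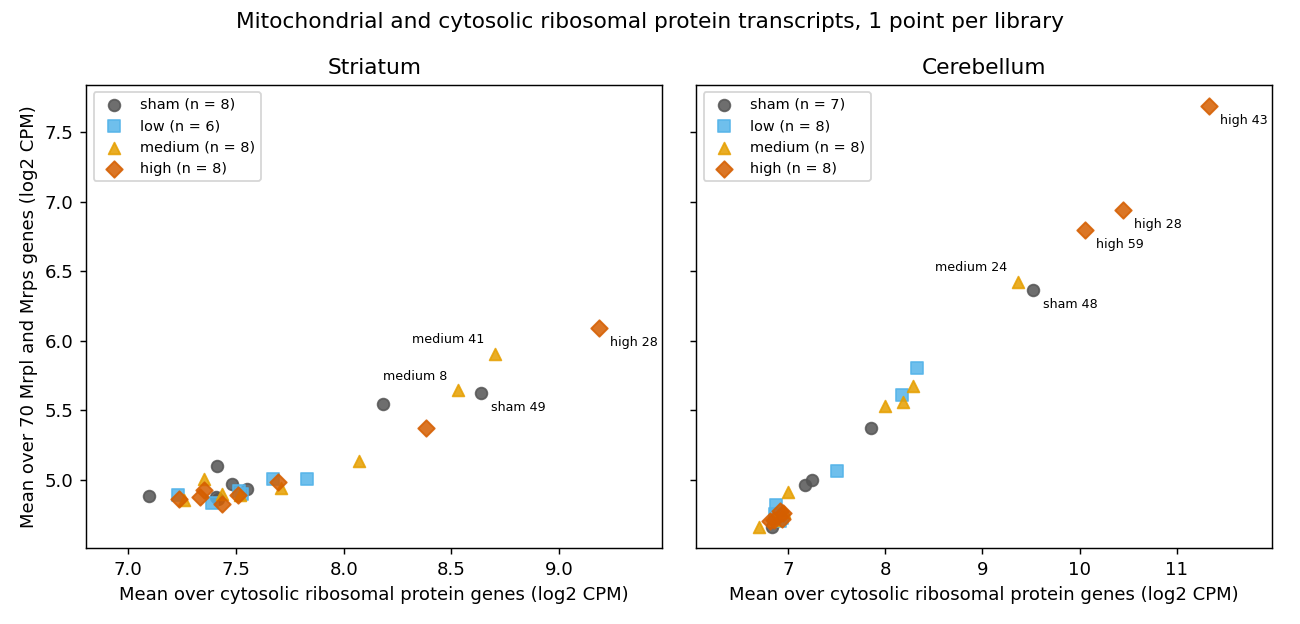
Mean level of the 70 members (y axis, log2 CPM) against the mean over cytosolic ribosomal protein genes (x axis, log2 CPM), 1 point per library, by region and loading. In both regions the libraries high on 1 axis are high on the other, from cerebellum high 43 at 11.33 and 7.69 down to the dense group of libraries at lower left.

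Nearly the whole family was higher in those libraries. In cerebellum high 43 all 70 members were above the sham median of the region and 65 of 70 were more than 2-fold above it. The same 2-fold limit was passed by 62 members in high 28, 61 in high 59, 60 in medium 24 and 58 in sham 48. In striatum high 28 it was passed by 44. The members' share of all counts ran from 0.210% to 0.982% over cerebellar libraries and from 0.220% to 0.480% over striatal ones. Genes with large- and small-subunit symbols moved together. The Mrpl mean minus the Mrps mean stayed between -0.019 and 0.28 log2 units in every cerebellar library and between -0.033 and 0.13 in every striatal one.

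Other measures moved with these levels. The libraries apart by cytosolic ribosomal proteins, 10 cerebellar and 4 striatal, had member means of 5.53 to 7.69 and 5.62 to 6.09 log2 CPM. The other 21 and 26 lay at 4.66 to 5.37 and 4.83 to 5.54, so the 2 sets did not overlap in either region. In the cerebellum the nuclear respiratory chain genes were at 7.49 to 9.91 in the apart libraries and 6.23 to 7.20 in the others. Mitochondrial tRNA ligases, which charge the tRNAs that the mitochondrial ribosome uses, were at 4.25 to 4.37 in the apart libraries and 4.34 to 4.53 in the others. The ligases thus sat at or below the low end of the others' range there. In the striatum they lay inside it, at 4.38 to 4.47 against 4.24 to 4.59. Mitochondrial ribosome assembly genes were at 4.75 to 4.99 against 4.38 to 4.76 in the striatum. Translation factors were at 4.73 to 4.87 against 4.57 to 4.79 there, so both overlapped. In the cerebellum assembly genes did not overlap, at 4.75 to 5.61 against 4.33 to 4.74. Translation factors did, at 4.73 to 5.34 against 4.63 to 4.84. The next values are also cerebellar. The 8 general neuron markers averaged 6.80 to 8.74 in the apart libraries and 8.90 to 9.19 in the others. Granule cell markers were at 3.40 to 8.42 against 8.64 to 9.13, and microglial markers at 4.43 to 5.42 against 3.09 to 4.30. In the striatum microglial markers overlapped, at 5.86 to 6.18 against 4.81 to 6.33, and so did the general neuron markers, at 7.36 to 8.13 against 7.81 to 8.66. Total counts were 7838465 to 10994625 in the 10 apart cerebellar libraries and 5420458 to 9435159 in the others. The part of these measures in the members' levels was not tested. Of the 4 striatal libraries apart by cytosolic ribosomal proteins, 3 come from rats with a cerebellar library, and all 3 (rats 8, 28 and 41) were apart in the cerebellum too. Of the 10 cerebellar ones, 9 come from rats with a striatal library, and 6 of these 9 (rats 22, 24, 40, 43, 48 and 59) were not apart in the striatum. In the striatum rats 48, 59 and 24 had member means of 5.54, 5.37 and 5.14, the highest after those 4 libraries. Rats 22, 43 and 40 had 5.00, 4.98 and 4.89 there. In the cerebellum rat 43 had 7.69.

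The members differed in how far they followed this variation, and the ones that followed it least were the same in both regions. The smallest SDs of log2 CPM over the cerebellar libraries were those of Mrps27 (0.20), Mrps5 (0.20), Mrps2 (0.22), Mrps31 (0.27) and Mrpl51 (0.30). In the striatum they were those of Mrps2 (0.13), Mrpl51 (0.15), Mrps5 (0.16), Mrps22 (0.16) and Mrpl47 (0.19). The largest were Mrpl23 (1.26), Mrpl54 (1.23), Mrpl42 (1.22), Mrps18c (1.18) and Mrps24 (1.18) in the cerebellum. In the striatum they were Mrps24 (0.56), Mrpl23 (0.53), Mrpl54 (0.53), Mrps18c (0.52) and Mrpl34 (0.52). The 8 members with the smallest spread were the same 8 genes in both regions, and 9 of the 10 with the largest were shared. Spearman's rho of the SDs across the 70 genes was 0.965, a description over genes that share libraries, rats and depth. From the other libraries to those apart by cytosolic ribosomal proteins, Mrps5 differed by 0.081 log2 units in the cerebellum and Mrpl23 by 2.26, with a median over members of 1.44. In the striatum the range was 0.16 (Mrps31) to 1.25 (Mrps18c), with a median of 0.89.

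**Figure D2:**
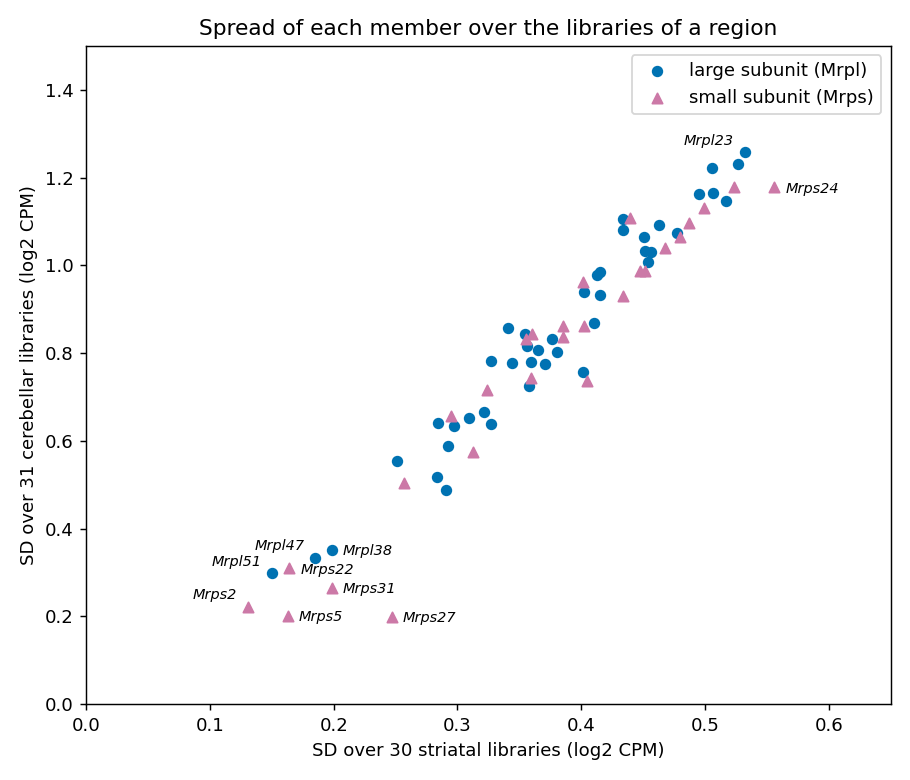
SD of log2 CPM of each member over the 31 cerebellar libraries (y axis) against the SD over the 30 striatal libraries (x axis), 1 point per gene. Mrps2, Mrps5, Mrps22, Mrps27, Mrps31, Mrpl38, Mrpl47 and Mrpl51 lie at lower left, and Mrpl23 and Mrps24 at upper right.

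In the cerebellum the members were more variable than the typical gene with all libraries, and close to it without those that stand apart. The median SD was 0.84 for members and 0.61 for all genes tested, and 0.22 and 0.22 without those libraries. The striatal values were 0.38 and 0.37, and 0.23 and 0.26 without. Single genes also had a smaller SD without those libraries. Mrps18c, a small-subunit protein, had an SD of 1.18 in the cerebellum and 0.26 without those libraries. Mrps5, which lies near the mRNA entry side of the small subunit, went from 0.20 to 0.12. It was below the median of all genes tested in both settings. The cerebellar libraries left out are those with the highest member means, so a fall in the members' SD follows from the rule that picked them.

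No member passed the test at any loading in either region. The question was whether 4-OH-PCB52 altered gene expression in each region; counts were tested with edgeR's quasi-likelihood test and p-values adjusted over all genes by Benjamini-Hochberg, with a threshold of 0.05. In the striatum the low, medium and high loadings each called 0 of 70 members and 0% of 12267 genes. No member had an unadjusted p under 0.05 there, against 3.84%, 3.69% and 1.15% of all genes. The members' median log2 fold change over sham was -0.21 at the low loading (1 of 70 above 0), 0.080 at the medium (63 above 0) and 0.050 at the high (47 above 0). The medians over all genes were -0.0013, 0.016 and 0.018. Without the libraries that stand apart the members' medians were -0.13, -0.11 and -0.042, again with 0 called. The signs at the medium and high loadings thus differed between the 2 sets of libraries. Leaving out the single library medium 41 gave -0.054 at the medium loading, and leaving out high 28 gave -0.18 at the high. Without sham 49 the 3 medians were -0.12, 0.17 and 0.14. The 3 loadings of a region share their sham libraries.

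In the striatum the smallest unadjusted p-values belonged to small differences. At the low loading they were those of Mrps30 (-0.25 ± 0.14 SE), Mrps9 (-0.31 ± 0.17) and Mrpl49 (-0.33 ± 0.19), all below sham, with adjusted p = 0.905 for each by edgeR. Mrpl47, a large-subunit protein, was the single member above sham there (0.092 ± 0.11). At the medium loading Mrpl51 (0.12 ± 0.080), Mrpl50 (0.23 ± 0.19) and Mrps18c (0.32 ± 0.28) were above sham, and Mrpl49 (-0.16 ± 0.17), Mrps5 (-0.069 ± 0.092) and Mrps31 (-0.063 ± 0.11) below. At the high loading Mrpl51 (0.10 ± 0.080), Mrpl19 (0.14 ± 0.13) and Mrpl47 (0.11 ± 0.11) were above, and Mrps5 (-0.096 ± 0.092), Mrps22 (-0.087 ± 0.095) and Mrpl40 (-0.11 ± 0.15) below. The test of any exposure called 0 members and 0.0245% of genes (3 of 12267), with 0 members and 2.02% of genes at an unadjusted p under 0.05. The trend with loading called 0 members and 0% of genes, with 0 members and 0.97% of genes at an unadjusted p under 0.05. In the test of any exposure the smallest p-values were those of Mrpl51, Mrps30 and Mrpl14. Mrpl51 had the smallest p of the trend (0.015 ± 0.0075 log2 units per percentage point of loading, unadjusted p = 0.0537 by edgeR). Next were Mrpl19 (0.021 ± 0.012) and Mrpl14 (0.037 ± 0.023) above 0, and Mrps5 (-0.0087 ± 0.0082), Mrps22 (-0.0048 ± 0.0086) and Mrpl40 (-0.0064 ± 0.014) below it. DESeq2 and limma-voom also called 0 members in each of these 5 striatal tests, with at most 1 and at most 5 members at an unadjusted p under 0.05. The 5 were at the high loading by limma-voom, against 3% of genes, and the 1 of DESeq2 was in the trend and in any exposure, against 0.986% and 2.53%.

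In the cerebellum the members' median log2 fold change was -0.17 at the low loading, 0.16 at the medium and 1.01 at the high, with 6, 68 and 70 of 70 above 0. All genes tested had medians of -0.025, -0.0011 and -0.026. Each loading called 0 members and 0% of 11946 genes. At an unadjusted p under 0.05 there were 0 members at the low loading (1.52% of genes), 0 at the medium (1.42%) and 50 at the high (11.7%). Genes with large- and small-subunit symbols were alike at the high loading, with medians of 0.99 (43 Mrpl symbols) and 1.02 (27 Mrps symbols). No marker passed the test at this loading either, with 6 of 7 choroid plexus markers above sham (median 1.01), 0 of 6 meningeal fibroblast markers (median -1.13) and 1 of 8 general neuron markers (median -0.22). Their part in the members' values was not tested. Without the libraries that stand apart the medians were -0.12, -0.16 and -0.19, 6 of 70 members were above sham at the high loading, and 0 were called. Those libraries have the highest member means of the region, so leaving them out removes the members' high values by the rule itself. Leaving out high 43 alone gave a median of 0.50. Leaving out sham 48 turned the low loading to 0.19 and gave 0.53 at the medium and 1.30 at the high. Leaving out low 22 gave -0.32 at the low loading, and leaving out medium 24 turned the medium loading to -0.092.

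**Figure D3:**
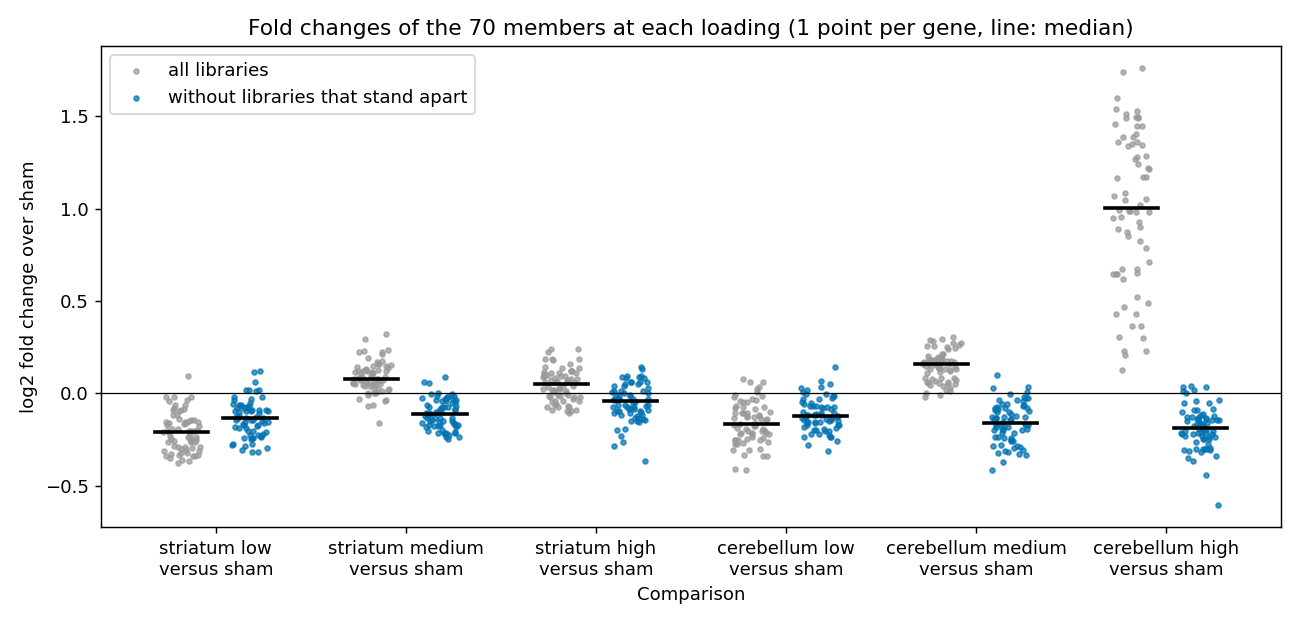
Log2 fold change over sham (y axis) of the 70 members at each loading and region (x axis), 1 point per gene, with all libraries (grey) and without those that stand apart (blue); black lines are medians. The cerebellum high members have a median of 1.01 with all libraries and -0.19 without, and the other medians lie between -0.21 and 0.16.

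At the low and medium loadings of the cerebellum the smallest p-values again belonged to differences close to their errors. At the low loading Mrps2 (0.079 ± 0.13 SE), Mrpl19 (0.062 ± 0.31) and Mrpl47 (0.034 ± 0.19) were above sham, and Mrpl14 (-0.41 ± 0.58), Mrps10 (-0.25 ± 0.37) and Mrpl23 (-0.41 ± 0.68) below. At the medium loading Mrps2 (0.19 ± 0.13), Mrpl19 (0.31 ± 0.31) and Mrpl51 (0.13 ± 0.17) were above, and the 2 members below were Mrpl23 (-0.017 ± 0.68) and Mrps10 (-0.0072 ± 0.37).

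Single members show the split within the cerebellum high group. Mrps18c had lowest, median and highest levels of 13.1, 16.95 and 70.5 CPM in sham, 13.5, 15.4 and 37.2 in low, 10.8, 21.8 and 67.2 in medium and 12.03, 15.95 and 330.3 in high. The high group's median was below that of sham, and its top 3 libraries (rats 59, 28 and 43 at 110.3, 140.5 and 330.3 CPM) were above every other cerebellar library. Its log2 fold change was 1.76 ± 0.65 (SE; edgeR adjusted p = 0.417), and -0.30 ± 0.14 without the libraries that stand apart (adjusted p = 0.590). Mrps21, also of the small subunit, had 25.9, 31.4 and 94.5 CPM in sham, 24.9, 28.6 and 52.9 in low, 29.03, 34.6 and 99.5 in medium and 20.8, 28.5 and 386 in high. Rats 59, 28 and 43 were again the top 3, and the other high libraries lay within or below the range of sham. Its fold change was 1.49 ± 0.54, and -0.26 ± 0.10 without those libraries. Mrps33 had 14.7, 20.6 and 60.6 CPM in sham and 14.2, 18.03 and 269 in high, with 1.54 ± 0.57 and -0.23 ± 0.17. For all 3 genes the groups overlapped.

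The trend with loading in the cerebellum was above 0 for all 70 members. Its median was 0.11 log2 units per percentage point of loading, against -0.0044 over all genes. It called 0 members and 0% of genes by edgeR, with a smallest adjusted p of 0.0755 (Mrps21 0.16 ± 0.043, Mrps18c 0.19 ± 0.051 and Mrps33 0.16 ± 0.045). 65 members and 20.6% of genes had an unadjusted p under 0.05. DESeq2 called 39 members in this trend, against 7.54% of genes, and limma-voom with sample weights called 0, with 2 members and 6.69% of genes at an unadjusted p under 0.05. Leaving out sham 48 gave 57 called members (13.7% of genes). Leaving out any 1 of high 13, 14, 27, 44 or 58, the 5 high libraries with low member levels, gave 36 to 42, against 7.43% to 8.9% of genes. Without the libraries that stand apart the trend's median was -0.015, with 5 of 70 above 0 and 0 called. The test of any exposure called 0 members and 0% of genes by edgeR, with 38 members and 10.3% of genes at an unadjusted p under 0.05; DESeq2 called 2 members (1.28% of genes) and limma-voom 0. At the 3 single loadings DESeq2 and limma-voom called 0 members in the cerebellum, with 57 (DESeq2; 15.4% of genes) and 3 (limma-voom; 6.93%) at an unadjusted p under 0.05 at the high loading.

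The change at each loading did not pass a test of difference between the regions for any member. The interaction called 0 members at the low loading (0% of 12616 genes), 0 at the medium (0%) and 0 at the high (0.00793%, 1 gene). At an unadjusted p under 0.05 there were 0 members (2.31% of genes), 0 (3.58%) and 32 (8.05%). At the high loading the median difference, cerebellum minus striatum, was 0.99, and -0.15 without the libraries that stand apart. The smallest p-values there were those of Mrpl53 (1.30 ± 0.51) and Mrps33 (1.44 ± 0.61), with edgeR adjusted p = 0.591 for each. At the low loading they were those of Mrps27 (0.19 ± 0.18) and Mrps2 (0.12 ± 0.15), and at the medium those of Mrps2 (0.11 ± 0.14) and Mrpl49 (0.31 ± 0.45). DESeq2 and limma-voom called 0 members in the 3 interactions, with 44 (DESeq2; 10.7% of genes) and 0 (limma-voom; 3.64%) at an unadjusted p under 0.05 at the high loading. At the low loading these were 0 (2.64%) and 3 (7.81%).

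Between the regions of sham rats the family differed little, and 4 members passed the test, all higher in the cerebellum. They were Mrps5, Mrps22, Mrps31 and Mrpl38, 5.71% of the 70, against 43% of 12616 genes called (22.1% higher in the cerebellum, 20.9% lower). At an unadjusted p under 0.05 there were 5 members and 49% of genes. All but 6 of the members (64, or 91.4%) lay within 0.5 log2 units of no difference, against 50.6% of genes. The members' median difference, cerebellum over striatum, was 0.17 log2 units, with 51 of 70 above 0, and that of all genes was 0.093. Of the 4 called genes 3 have a small-subunit symbol, and the 4 are among the 8 with the smallest spread in both regions. Each region has its own deposited table, so region and table cannot be told apart. Without cerebellum sham 48 there were 2 calls, Mrps5 and Mrps22, and the members' median was -0.19.

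Mrps5 showed the largest difference. In striatal sham its lowest, median and highest levels were 38.1, 46.8 and 50.04 CPM, with a mean of 45.3 ± 3.87 CPM (SD, n = 8). In cerebellar sham they were 61.2, 75.4 and 79.7 CPM, with a mean of 72.05 ± 7.47 CPM (SD, n = 7). By these levels, scaled within each region, every cerebellar sham library was above every striatal one. The log2 fold change was 0.70 ± 0.10 (SE; edgeR adjusted p = 1.05e-07), and 0.75 ± 0.078 without the libraries that stand apart. With the animal as a replicate block it was 0.72 ± 0.10. Its level in the exposed groups had medians of 44.7, 42.2 and 40.98 CPM in striatum low, medium and high and 72.5, 72.3 and 71.5 in the cerebellum. The cerebellum thus had the higher median at every loading.

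Mrps22, a small-subunit protein found only in mitochondrial ribosomes, was also fully separated between regions by levels scaled within each region. Its striatal sham levels were 23.5, 27.2 and 30.96 CPM (lowest, median, highest) and its cerebellar ones 33.9, 35.96 and 46.1, with no overlap. The means were 27.3 ± 2.34 CPM (SD, n = 8) and 37.8 ± 4.23 CPM (SD, n = 7). Its difference was 0.50 ± 0.14 (edgeR adjusted p = 0.00253). Mrpl38, on the large subunit, had 31.3, 36.7 and 44.4 CPM in the striatum and 41.9, 52.5 and 71.5 in the cerebellum, and the 2 ranges overlapped. Its difference was 0.51 ± 0.16 (adjusted p = 0.00645 by edgeR), and it was not called without cerebellum sham 48 (0.38). Mrps31 had 22.4, 24.5 and 32.3 CPM in the striatum and 26.5, 32.3 and 37.6 in the cerebellum, with wide overlap. Its difference was 0.36 ± 0.13 (adjusted p = 0.0214 by edgeR). That call was lost with the animal as a replicate block (0.34 ± 0.14, edgeR adjusted p = 0.0509) and without striatum sham 49, cerebellum sham 17 or cerebellum sham 48.

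**Figure D4:**
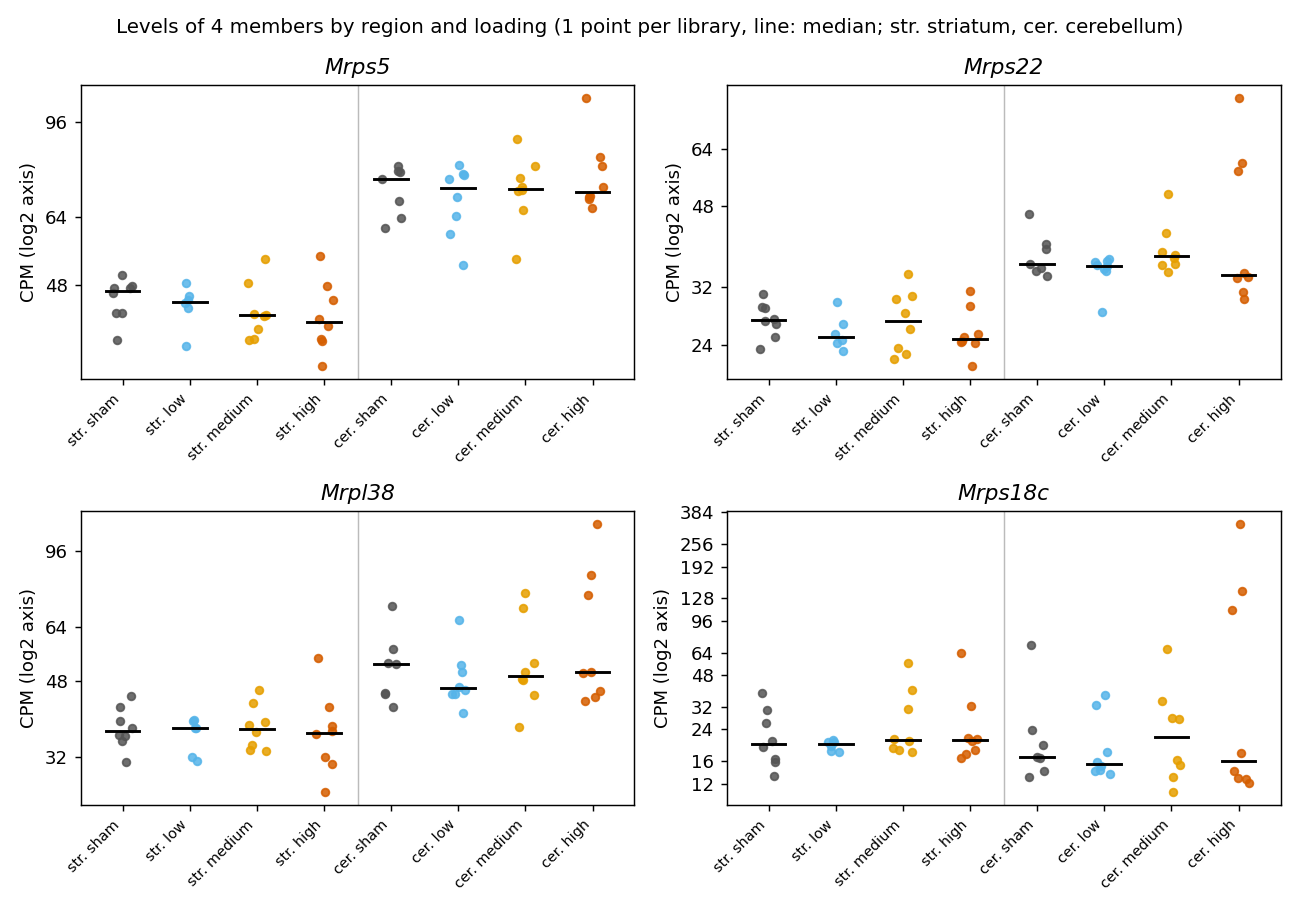
Levels (y axis, CPM on a log2 axis) of Mrps5, Mrps22, Mrpl38 and Mrps18c in the striatum and cerebellum at each loading (x axis), 1 point per library. Lines are group medians, and TMM scaling was done within each region. Mrps5 and Mrps22 are separated between the regions in sham, whereas Mrps18c has similar medians in both and 3 cerebellum high libraries far above the others.

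The next member was Mrpl37 (0.56 ± 0.28, edgeR adjusted p = 0.101). It was called with the animal block (0.59 ± 0.22, adjusted p = 0.0301 by edgeR), as was Mrpl4 (0.41 ± 0.16, adjusted p = 0.0355). The blocked fit called 5 members, against 43.9% of genes, and 3 of them were among the 4 called without the block. The 5 members below 0 with the smallest p did not pass: Mrps2 (-0.15 ± 0.10), Mrpl3 (-0.29 ± 0.27), Mrpl19 (-0.25 ± 0.23), Mrpl10 (-0.25 ± 0.26) and Mrps33 (-0.31 ± 0.44).

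Without the libraries that stand apart, 6 sham libraries remained in each region and 30 members passed, 10 higher and 20 lower in the cerebellum. The background rose with it to 67.3% of genes (35.1% higher, 32.2% lower). All 4 members called with every library were among the 10 higher ones. These 10 were Mrps5, Mrpl38 (0.45 ± 0.090), Mrps22 (0.44 ± 0.079), Mrpl37 (0.39 ± 0.11), Mrpl58 (0.36 ± 0.14), Mrps11 (0.32 ± 0.11), Mrps31 (0.32 ± 0.10), Mrpl15 (0.31 ± 0.12), Mrpl4 (0.23 ± 0.10) and Mrpl47 (0.20 ± 0.087). Mrpl58 is the peptidyl-tRNA hydrolase of the large subunit, which can free stalled ribosomes. The lower ones, 10 of each subunit, were led by Mrpl54 (-0.71 ± 0.20), Mrps16 (-0.64 ± 0.15), Mrps33 (-0.61 ± 0.15), Mrpl52 (-0.58 ± 0.16), Mrps15 (-0.53 ± 0.13), Mrpl36 (-0.52 ± 0.16) and Mrpl3 (-0.48 ± 0.092). The others were Mrpl10, Mrpl19, Mrpl23, Mrpl32, Mrpl34, Mrpl35, Mrps9, Mrps17, Mrps18b, Mrps21, Mrps23, Mrps24 and Mrps34, from -0.46 (Mrpl23) to -0.24 (Mrps9). Of the 20, 16 were also below 0 with all libraries, and the other 4 were above it (Mrpl23 0.17 ± 0.53, Mrpl34 0.0033 ± 0.48, Mrps23 0.027 ± 0.40 and Mrps24 0.14 ± 0.49). The members' median was then -0.092, so the sign of the family's small regional difference depended on these libraries. Among the lower genes, Mrps16 went from 31.9 ± 7.68 CPM (SD, n = 6) in the striatum to 19.9 ± 5.69 CPM (SD, n = 6) in the cerebellum, and Mrpl54 from 45.8 ± 17.1 CPM (SD, n = 6) to 27.2 ± 8.32 CPM (SD, n = 6). The mean of the region differences over the 4 exposure groups, with all libraries, called 44 members, all higher in the cerebellum, against 71.6% of genes. That mean takes in the cerebellar libraries that stand apart (1 sham, 2 low, 4 medium and 3 high), which have the region's highest member means. It was not calculated without them.

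**Figure D5:**
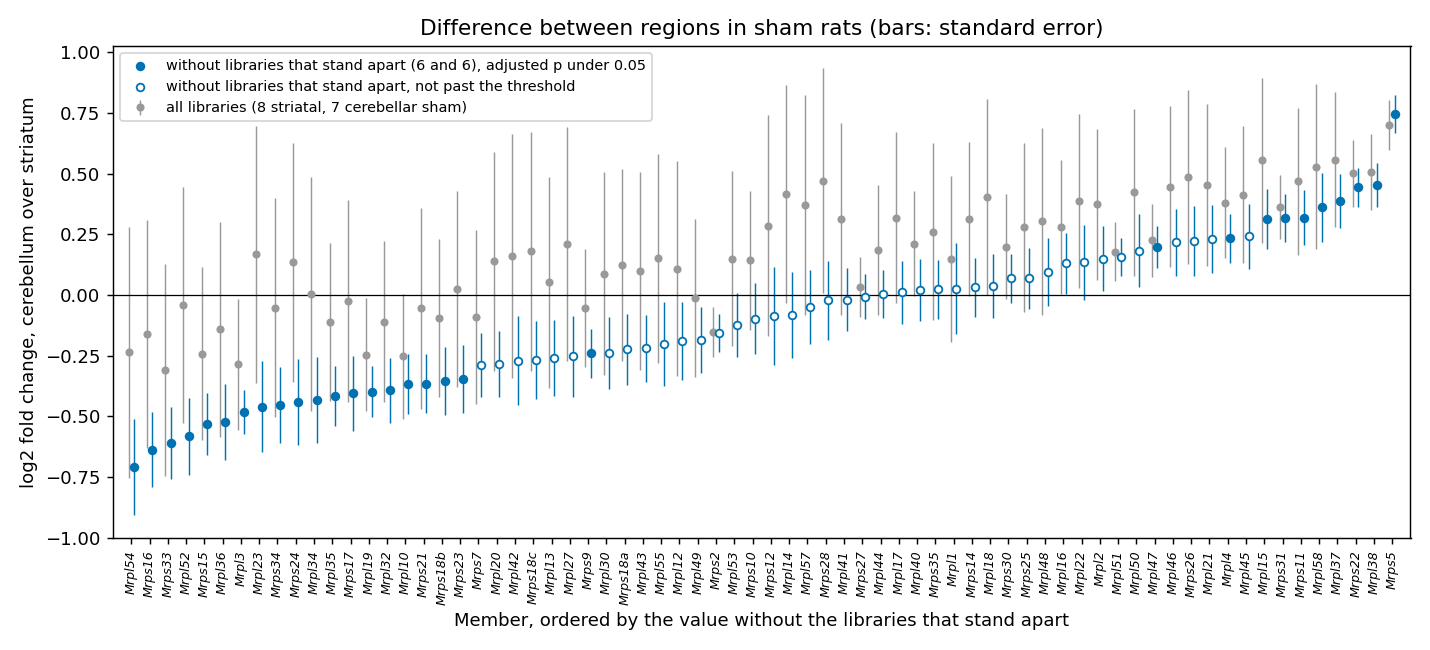
Log2 fold change, cerebellum over striatum, in sham rats (y axis) for each member (x axis), with standard errors, for all libraries (grey) and without those that stand apart (blue; filled where past the threshold). The blue values run from -0.71 (Mrpl54) to 0.75 (Mrps5), and the grey standard errors are wide for most members and narrow for Mrps5.

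Mrps18a, Mrps18b and Mrps18c are paralogs of 1 bacterial ribosomal protein; by structure the product of Mrps18a sits in the large subunit despite its symbol. In sham rats their regional differences, cerebellum over striatum, were 0.12 ± 0.39, -0.094 ± 0.33 and 0.18 ± 0.49, and none passed. Without the libraries that stand apart Mrps18b was lower in the cerebellum (-0.35 ± 0.14, edgeR adjusted p = 0.0250), while Mrps18a (-0.22 ± 0.15) and Mrps18c (-0.27 ± 0.16) did not pass. Whether the paralogs differ from each other was not tested. In the cerebellum the top high library, rat 43, had 426 CPM of Mrps18a, 126 of Mrps18b and 330.3 of Mrps18c, against cerebellar sham medians of 45.6, 25.5 and 16.95.

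Other genes of the pathway were counted in the same fits, where the regional comparison called 43% of all 12616 genes. In the regional comparison of sham rats 5 of 15 mitochondrial translation factors passed (4 higher in the cerebellum), among them Guf1, a translation elongation GTPase (0.60 ± 0.12, adjusted p = 3.37e-05, edgeR), and Mrrf, the ribosome recycling factor (-0.27 ± 0.092, adjusted p = 0.0146). Of 17 tRNA ligases 4 passed (3 higher), with Aars2, the alanyl-tRNA synthetase, at 0.68 ± 0.20, adjusted p = 0.00417 by edgeR and Tars2, the threonyl-tRNA synthetase, at -0.24 ± 0.091, adjusted p = 0.0260. Of 26 ribosome assembly genes 9 passed (6 higher), with Rpusd4, a pseudouridine synthase, at 0.62 ± 0.16, adjusted p = 0.00149 by edgeR and Tfb1m, which methylates the small ribosomal RNA, at -0.76 ± 0.14, adjusted p = 1.63e-05. Of 25 genes for expression and copying of mitochondrial DNA 11 passed (10 higher), with Polg2, the accessory subunit of the mitochondrial DNA polymerase, at 1.40 ± 0.24, adjusted p = 3.50e-06 by edgeR and the helicase gene Twnk at -0.70 ± 0.14, adjusted p = 5.09e-05. Of 6 genes listed as mitochondrial ribosomal proteins with other names 1 passed, Ptcd3 of the small subunit (0.62 ± 0.15, adjusted p = 5.73e-04, edgeR). That list holds Kgd4, whose product belongs to the oxoglutarate dehydrogenase complex. Among 11 factors known to control nuclear mitochondrial genes 6 passed (5 higher), with Gabpb1, a GABP subunit, at 0.62 ± 0.13, adjusted p = 5.05e-05 by edgeR and Myc at -2.06 ± 0.33, adjusted p = 7.08e-07. Of 11 mitochondrial stress response genes 2 passed, Atf4 (0.96 ± 0.29, adjusted p = 0.00526, edgeR) and the protease gene Lonp1 (-0.30 ± 0.085, adjusted p = 0.00293). Of 78 nuclear respiratory chain genes 1 passed, Atp5f1a of the ATP synthase (0.44 ± 0.16, adjusted p = 0.0247, edgeR), and of 81 cytosolic ribosomal protein genes 1 passed, Rpl3l (-2.95 ± 0.71, adjusted p = 5.27e-04).

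The low share of calls in the members was thus shared by the 2 other large lists, and without the libraries that stand apart all 3 rose. The respiratory chain then had 24 of 77 genes called (31.2%, with 6 higher and 18 lower). Cytosolic ribosomal proteins had 34 of 81 (42%, all lower). Translation factors had 7 of 15 (46.7%), tRNA ligases 8 of 17 (47.1%), assembly genes 12 of 26 (46.2%) and mitochondrial DNA genes 17 of 25 (68%). Over all genes tested the share was then 67.3%. At the exposure comparisons 0 genes of any of these 9 lists were called by edgeR. At the cerebellar high loading the median log2 fold change was 1.43 for the respiratory chain and 1.79 for cytosolic ribosomal proteins. At an unadjusted p under 0.05 by edgeR were 57 of 78 and 77 of 80 of them, against 11.7% of all genes. For the list of ribosomal proteins with other names, Kgd4 included, the median was 1.10 (3 of 6 at that limit). It was 0.28 for assembly genes (4 of 26), 0.17 for translation factors (3 of 15) and -0.0013 for tRNA ligases (1 of 17). The members, at 1.01, lay below the list with other names (1.10) and above the assembly genes (0.28).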

How the data were processed

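RNA-seq counts of striatum and cerebellum were used as deposited by the authors, as whole-number counts per NCBI Gene ID. The submitters' processing notes name FastQC, the aligner HISAT2 and the genome build rn6. The counting tool, its annotation and its strand setting were not given in the sources used here. Symbols came from RefSeq (GRCr8), which matched 14163 of 14231 striatal and 14063 of 14129 cerebellar IDs. Each region was fitted with edgeR 4.0.16 (R 4.3.3; TMM, filterByExpr, robust quasi-likelihood test, two-sided) over its 4 exposure groups, and both regions together for the regional difference and the interactions. Genes tested numbered 12267, 11946 and 12616, with Benjamini-Hochberg adjustment over all of them and a threshold of 0.05. An SE is the fold change over the square root of its F statistic. DESeq2 1.42.0, limma-voom 3.58.1 and other settings were alternatives; the closing section gives their effect. The fit was tested on simulated data.

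The labels do not say more of the samples than rat number, region and loading, so each library was taken as 1 rat; no 2 libraries held identical counts. The regions share 29 rats (7 sham). The deviations of a rat's 2 libraries from their group means correlated over 12616 genes with a median r of 0.345 (-0.24 to 0.82, over 0.1 in 21 of 29 rats), and the pairing comes from the shared rat number. The lowest median count of a member was 73.5 in the striatum and 76.0 in the cerebellum, and any 2 libraries of a group differed by more than counting error (smallest reduced chi-square 2.81).

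The members and lists were chosen with earlier results of these data known. Named members are those past the threshold, filled by smallest p to 3 per direction for each exposure test, 5 per direction for the regional difference and 2 for each interaction, the 5 with the largest and smallest SD in each region, and the Mrps18 paralogs. A ranking by level per length was left out, since no transcript lengths were used. Members called without the libraries that stand apart were named as well. Genes encoded in mitochondrial DNA are not analysed here.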

Additional observations from a re-analysis of the deposited data

Results flagged for a closer look

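A series of values was one gene's, or the member mean's, log2 CPM over the libraries of one group. In 9 of 64 such series the highest or lowest library was far from the others. The measure was the ratio of its gap to the nearest library over the range of the group. Chance gives about 1 in 20 for independent series. These series share libraries, their genes vary together, and the genes were named from results of these data. The 9 can therefore not be set against that rate. In cerebellum sham, rat 48 was the highest for the member mean (ratio 0.584; 6.37 against 5.37 log2 CPM for the next library), for Mrps21 (0.735), for Mrps18c (0.649) and for Mrps33 (0.575). In striatum high, rat 28 was the highest for the member mean (0.569; 6.09 against 5.37) and for Mrps33 (0.587). Rat 24 was the highest of cerebellum medium for Mrps31 (0.599), and rat 43 the highest of cerebellum high for Mrps5 (0.539; 6.74 against 6.37). Rat 51 was the lowest of cerebellum low for Mrps22 (0.766; 4.84 against 5.13). Each of these libraries but the last stands apart by its cytosolic ribosomal protein level.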

How the results depend on the processing

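A call count was within the set limits if it was equal, also at 0, or differed little. A median was within them if it moved by less than the SD of the member mean over sham libraries. Cerebellar ones were used where regions were compared. Medians could thus change sign within the limits. Leaving out 1 library gave -0.32 to 0.19 at cerebellum low, -0.092 to 0.53 at cerebellum medium and -0.19 to 0.26 between regions, all within them. By these limits 714 recalculations of the number of members called and their median fold change stayed, and 18 moved, given next. In the cerebellar trend with loading DESeq2 called 39 members (7.54% of genes) and leaving out 1 library gave 0 to 57 (0% to 13.7%), and for any exposure DESeq2 called 2 (1.28%). In the regional comparison limma-voom called 36 members (72% of genes), the fit without the libraries that stand apart 30 (67.3%), that fit with the animal as a replicate block 32 (67.5%), the mean over 4 groups 44 (71.6%), and leaving out 1 library 2 to 4 (40.1% to 45.3%). With the animal as a replicate block and all libraries 5 were called (43.9%). The members' median at the cerebellar high loading was -0.056 by limma-voom and -0.19 without the libraries that stand apart. For the interaction at the high loading it was -0.015, -0.15 and, with block and exclusion together, -0.098.

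In the regional comparison Mrpl23, Mrpl34, Mrps23 and Mrps24 were above 0 with all libraries and passed as lower without those that stand apart (-0.46, -0.43, -0.35 and -0.44). Mrps18a and Mrps18c turned there from 0.12 and 0.18 to -0.22 and -0.27 without passing. Signs of members named for the smallest p-values turned as follows, with none of the turned values past the threshold; the cause was not tested. Without the libraries that stand apart the values were -0.0032 (Mrps18c, striatum medium), -0.10 (Mrpl14, striatum any), -0.016, -0.034 and -0.056 (Mrps2, Mrpl19 and Mrpl51, cerebellum medium). They were -0.26, -0.30 and -0.23 (Mrps21, Mrps18c and Mrps33, cerebellum high), -0.26, -0.15 and -0.089 (Mrps18c, Mrps21 and Mrpl53, any exposure) and -0.019, -0.025 and -0.020 (Mrps21, Mrps18c and Mrps33, trend). The interactions gave -0.079 (Mrps2, medium), -0.057 and -0.25 (Mrpl53 and Mrps33, high). By limma-voom they were -0.018 (Mrpl51, cerebellum medium), -0.19, -0.19 and -0.10 (Mrps21, Mrps18c and Mrps33, high), -0.12, -0.090 and -0.029 (Mrps18c, Mrps21 and Mrpl53, any exposure), -0.012, -0.015 and -0.0045 (Mrps21, Mrps18c and Mrps33, trend), -0.014 (Mrps2, interaction medium) and -0.056 (Mrps33, interaction high). With replicate block and exclusion together the interactions gave -0.054 (Mrps2, medium), -0.067 (Mrpl49, medium) and -0.17 (Mrps33, high). Mrps33 in the regional comparison was 0.13 as the mean over 4 groups. Leaving out 1 library gave -0.039 to 0.16 (Mrpl14, striatum any), -0.017 to 2.5e-04 (Mrpl40, striatum trend), -0.036 to 0.24 (Mrpl19), -0.030 to 0.064 (Mrpl47), -0.57 to 0.15 (Mrpl14) and -0.77 to 0.28 (Mrpl23) at cerebellum low, and -0.35 to 0.69 (Mrpl23) and -0.17 to 0.25 (Mrps10) at cerebellum medium. The replicate block alone changed the calls of Mrps31 (lost), Mrpl37 and Mrpl4 (gained) in the regional comparison and of no other member.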
